A study of Mus musculus with 86 samples.

Results

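The genes that give a neuron its transmitter identity were measured in 3 brain regions of wild house mice. The 10 genes were chosen by name, as the rows of the count table that carry the listed mouse symbols, and all 10 were found among 35275 genes. For glutamate they are the vesicular transporters Slc17a7 (VGLUT1), Slc17a6 (VGLUT2) and Slc17a8 (VGLUT3). For GABA they are the glutamate decarboxylases Gad1 and Gad2 and the vesicular transporter Slc32a1 (VGAT). For acetylcholine they are the synthetic enzyme Chat, the vesicular transporter Slc18a3 (VAChT) and the choline transporter Slc5a7, and for histamine the synthetic enzyme Hdc. The animals were free-living Mus musculus domesticus of both sexes, without a genetic or drug treatment, caught in winter in a barn population near Zurich and selected for meeting few or many nest box partners. RNA was taken from tissue punches of the prefrontal cortex, the hypothalamus and the hippocampus, so that each library holds the mixed cells of 1 region of 1 animal. Large social network sizes (high gregariousness in the sample labels) were represented by 7 females and 7 males, and small sizes (low gregariousness) by 7 females and 8 males. The hypothalamus of 1 male with a small network size gave no library, which left 86 libraries of 29 animals. Ages were estimated, and their part in the comparisons was not tested.

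A neuron releases the transmitter that its vesicular transporter loads into synaptic vesicles, and these transporters and enzymes are therefore used as labels of transmitter type. Slc17a7 is the main glutamate transporter of cortical and hippocampal pyramidal and granule cells, whereas Slc17a6 marks glutamate neurons of the thalamus, hypothalamus and brainstem. Gad1 and Gad2 both make GABA from glutamate, and Slc32a1 loads it. Cholinergic neurons need Chat, Slc18a3 and Slc5a7 together, and in the forebrain they lie in the striatum, the basal forebrain and a few hypothalamic nuclei, among other places. Histamine neurons of the brain sit in the tuberomammillary nucleus of the posterior hypothalamus, and mast cells are the other main source of Hdc.

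Promoters are shown for 4 genes, because Slc17a7 and Slc17a6 had opposite levels across the regions and because Chat and Slc18a3 share 1 locus. Slc18a3 lies inside Chat on the same strand of chromosome 14 without exon overlap, and the RefSeq starts of both genes are 1059 bases apart. Each sequence runs from 250 bases before to 50 bases after the start, read 5′ to 3′ on the strand of the gene, and comes from RefSeq on GRCm38.p6. Capitals mark matches, on either strand, to the E-box CACGTG, the cAMP response element TGACGTCA, the TATA box TATAAA, the CCAAT box CCAAT or the GC box GGGCGG.
Slc17a7 (chr7:45163671-45163970, plus strand): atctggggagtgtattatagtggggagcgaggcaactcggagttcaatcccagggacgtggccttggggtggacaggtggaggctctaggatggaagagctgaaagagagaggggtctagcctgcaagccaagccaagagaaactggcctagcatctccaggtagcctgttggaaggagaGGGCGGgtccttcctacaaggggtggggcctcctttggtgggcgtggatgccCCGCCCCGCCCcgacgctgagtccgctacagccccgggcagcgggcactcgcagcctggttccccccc
Slc17a6 (chr7:51621580-51621879, plus strand): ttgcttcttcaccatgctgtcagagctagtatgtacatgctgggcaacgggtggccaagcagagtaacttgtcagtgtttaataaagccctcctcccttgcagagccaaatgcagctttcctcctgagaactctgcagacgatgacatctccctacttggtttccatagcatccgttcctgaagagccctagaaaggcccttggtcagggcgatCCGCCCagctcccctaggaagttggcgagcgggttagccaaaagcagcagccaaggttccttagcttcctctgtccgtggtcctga
Chat (chr14:32465860-32466159, minus strand): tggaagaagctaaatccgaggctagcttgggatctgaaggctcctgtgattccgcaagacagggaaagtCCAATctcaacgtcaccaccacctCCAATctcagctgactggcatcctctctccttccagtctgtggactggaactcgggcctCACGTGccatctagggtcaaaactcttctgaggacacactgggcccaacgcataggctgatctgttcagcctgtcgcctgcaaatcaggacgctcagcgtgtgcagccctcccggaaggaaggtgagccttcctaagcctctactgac
Slc18a3 (chr14:32464801-32465100, minus strand): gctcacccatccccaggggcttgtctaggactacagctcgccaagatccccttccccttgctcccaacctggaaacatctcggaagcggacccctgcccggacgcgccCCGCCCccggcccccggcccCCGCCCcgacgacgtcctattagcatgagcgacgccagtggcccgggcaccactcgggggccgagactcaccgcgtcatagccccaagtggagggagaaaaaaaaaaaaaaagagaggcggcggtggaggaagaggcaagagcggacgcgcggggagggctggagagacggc

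Slc17a7 held 3 GC box matches, of which a pair overlapped by 1 base, and Slc17a6 held 1. Chat held 1 E-box and 2 CCAAT boxes, and Slc18a3 held 2 GC boxes. Among 32851 promoters of this length, 35.7% held a GC box, 7.15% this E-box and 37.4% a CCAAT box. All 10 genes had at least 1 RefSeq promoter. GC content was 63.7% for Slc17a7, 53.7% for Slc17a6, 55.7% for Chat and 67.0% for Slc18a3, beside a median of 52.7% over all promoters. Slc17a6 has a second RefSeq promoter (chr7:51624387-51624686), not shown, with 43.0% GC and none of these matches. The Chat and Slc18a3 windows had no type of match in common.

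The 86 libraries held from 33711824 to 81865801 counts (median 44778419). Levels are CPM (counts scaled to a common library size) after TMM normalisation, and the lowest count of any of the 10 genes in a library was 4, for Slc18a3 in the prefrontal cortex. Marker lists of cell types were used to check the regions. Summed over 10 peptide and transcription factor genes of hypothalamic neurons, the level was 179 to 1614 CPM in the hypothalamus, 5.27 to 12.1 in the prefrontal cortex and 6.16 to 102 in the hippocampus. The 8 cortical markers summed to 841 to 1320 CPM in the prefrontal cortex, above the 506 to 669 of the hippocampus and the 284 to 437 of the hypothalamus. The sum of the 8 hippocampal markers did not separate the regions, with 637 to 816 CPM in the hippocampus and 527 to 905 in the prefrontal cortex. Of these markers, Fibcd1, Dsp and Tdo2 were each higher in every hippocampus library than in any library of the other regions. Prox1, Zbtb20 and Neurod1 overlapped with another region, and Spock1 and Wfs1 had higher medians in the prefrontal cortex than in the hippocampus. A few libraries stood apart. The prefrontal cortex of animals 10 and 20 had 869 and 777 CPM of striatal markers, against a median of 297. The hypothalamus of animal 6 had 1254 CPM of thalamic markers, against a median of 359, and the hypothalamus of animal 10 had the lowest hypothalamic sum. Many of the values below are also given without these 4 libraries. The hippocampus of animal 7 is not among these 4. It had 102 CPM of hypothalamic markers (next highest 46.6, median 14.8) and 400 of striatal markers, against a median of 245. Its levels of Slc32a1 and Chat were the highest of the hippocampus. Striatal markers were not low in the hypothalamus as a whole, where they summed to 506 to 1655 CPM (median 951), beside medians of 297 in prefrontal cortex and 245 in hippocampus.

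In the hypothalamus, Slc17a7 was far lower and the other 9 genes were higher than in the prefrontal cortex of the same animals. Regions were compared by edgeR's quasi-likelihood test with the animal as a block, and each log2 fold change is given with its standard error (SE), in 28 animals for the hypothalamus and in 29 for the hippocampus against the prefrontal cortex. All 10 genes had an adjusted p under 0.05 between hypothalamus and prefrontal cortex, but so had 81.3% of the 18769 genes tested. The 9 genes higher there compare with 42.2% of all genes, and the 1 lower gene with 39.1%. A difference of at least 2-fold is more selective. It was met by 9 of the 10 genes, all except Gad1, and by 15.6% of all genes. The ranges over libraries of the 2 regions did not overlap for 9 of the 10 genes, 8 of them higher in the hypothalamus, compared with 14.8% of all genes. Against the hippocampus, all 10 genes passed (76.4% of all genes), 9 of them higher (36.8%) and 1 lower (39.5%), 8 by at least 2-fold (9.72% of all genes) and 8 with ranges apart (8.90% of all genes). The 2 comparisons share the hypothalamus libraries. Between hippocampus and prefrontal cortex, 5 of the 10 genes passed, compared with 72.0% of all genes, 3 of them higher (38.8%) and 2 lower (33.3%). Slc17a6 and Hdc differed there by at least 2-fold (6.39% of all genes), and only Slc17a6 had ranges apart (4.25% of all genes). The median absolute log2 fold change of the 10 genes was 3.34, 1.88 and 0.27 in these comparisons, beside 0.31, 0.24 and 0.19 over all genes. In bulk tissue, fewer cells of a type and less RNA per cell cannot be told apart.

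**Figure D1:**
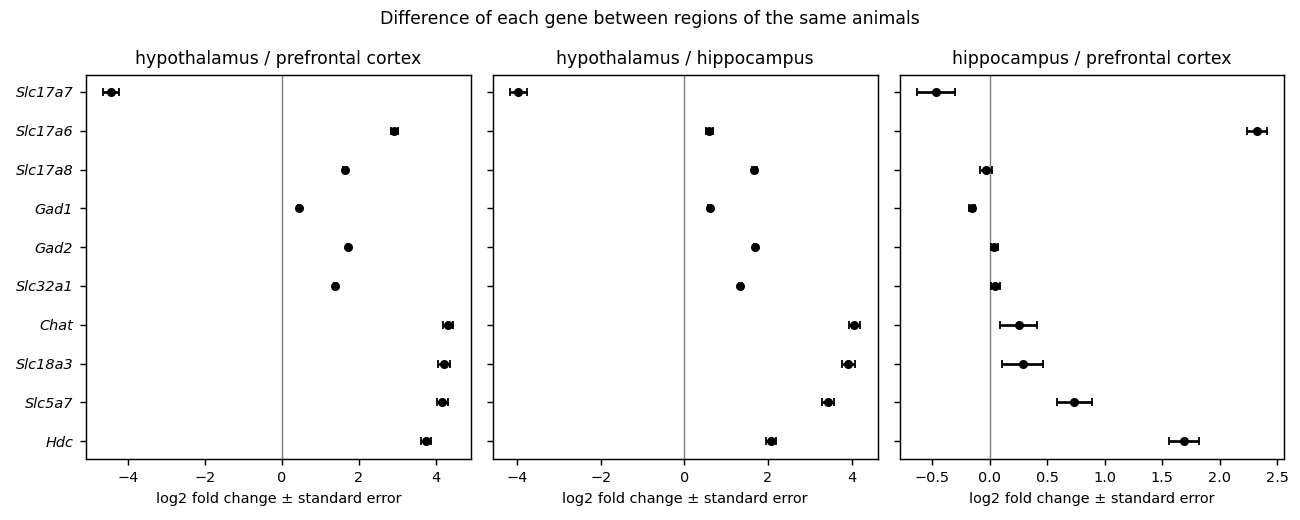
Log2 fold changes of the 10 genes between regions from edgeR's fit with the animal as a block, with standard errors as bars. The horizontal scale differs between the 3 panels. Slc17a7 lies at -4.44 and -3.97 for the hypothalamus, while Chat, Slc18a3 and Slc5a7 lie above 3 in both panels. Hippocampus over prefrontal cortex spans -0.47 to 2.32.

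Among the glutamate transporters, Slc17a7 and Slc17a6 ran in opposite directions. Slc17a7 (ENSMUSG00000070570, chr7:45163949-45176142 of GRCm38) had 1374 to 2145 CPM in the prefrontal cortex (median 1642), 924 to 1405 in the hippocampus (median 1203) and 10.96 to 281 in the hypothalamus (median 65.8). The hypothalamus libraries were the lowest without exception, but they spread over 25.7-fold. The level of Slc17a7 in the hypothalamus was 21.7-fold lower than in the prefrontal cortex (log2 fold change -4.44, SE 0.20, adjusted p = 5.45e-30 by edgeR) and lower in 28 of 28 animals. Against the hippocampus, its log2 fold change was -3.97 (SE 0.20), also in 28 of 28 animals. Between hippocampus and prefrontal cortex the difference was small, with a log2 fold change of -0.47 (SE 0.17, adjusted p = 0.0103 by edgeR) and a lower level in 29 of 29 animals. The spread behind this standard error was estimated over all 3 regions. The sum of 5 general neuron markers went from a median of 5823 CPM in the prefrontal cortex to 3888 in the hippocampus. That of 5 oligodendrocyte markers went from 2897 to 4687. In the hypothalamus, the medians of these sums were 2896 and 4579 CPM. The part of these markers in the differences between regions was not tested.

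Slc17a6 (ENSMUSG00000030500, chr7:51622006-51671119) had 16.5 to 36.5 CPM in the prefrontal cortex (median 23.3), 67.8 to 169 in the hippocampus (median 119) and 108 to 299 in the hypothalamus (median 184). The prefrontal cortex lay below both other regions, whose ranges overlapped. The log2 fold change was 2.92 (SE 0.09, adjusted p = 1.26e-38 by edgeR) for the hypothalamus and 2.32 (SE 0.09, adjusted p = 6.98e-33) for the hippocampus, both over the prefrontal cortex. The hypothalamus exceeded the hippocampus by only 0.60 on the log2 scale (SE 0.08), with a higher level in 25 of 28 animals. Animal 6, with its high thalamic markers, had the highest level of Slc17a6 in the hypothalamus. The 8 thalamic markers summed to 280 to 644 CPM in the hippocampus (median 419) and 114 to 195 in the prefrontal cortex (median 148). In the hypothalamus they summed to 287 to 1254 CPM (median 359). Their part in the regional levels of Slc17a6 was not tested. Slc17a8 (ENSMUSG00000019935, chr10:89574020-89621253), the transporter found in scattered interneurons and in serotonin and cholinergic neurons, was low everywhere. It had medians of 3.35 CPM in the prefrontal cortex, 3.30 in the hippocampus and 10.5 in the hypothalamus. Its hypothalamic range of 7.44 to 17.1 lay above the 2.66 to 4.89 of the prefrontal cortex and the 2.71 to 4.15 of the hippocampus. The log2 fold change was 1.64 (SE 0.05) over the prefrontal cortex and 1.67 (SE 0.05) over the hippocampus. Slc17a8 did not pass the test between hippocampus and prefrontal cortex (log2 fold change -0.03, SE 0.06, adjusted p = 0.586 by edgeR).

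All 3 GABA genes were higher in the hypothalamus, but by different amounts. Markers of striatal projection neurons, which are GABA neurons, were higher there too, as given above. The sum of 10 interneuron markers was instead lower in every hypothalamus library than in any library of the other regions. Its medians were 1142.8 CPM in the prefrontal cortex, 858.8 in the hippocampus and 624.6 in the hypothalamus. Among these markers, Sst, Calb2 and Lhx6 had higher medians in the hypothalamus than in both other regions. The part of either list in the result was not tested. Gad2 (ENSMUSG00000026787, chr2:22622205-22693874), which encodes the decarboxylase found mainly at nerve terminals, had 162 to 231 CPM in the prefrontal cortex (median 191), 164 to 230 in the hippocampus (median 198) and 471 to 799 in the hypothalamus (median 632). Slc32a1 (ENSMUSG00000037771, chr2:158610767-158615748) had 60.1 to 105 CPM (median 79.8), 63.2 to 111 (median 81.5) and 170 to 256 (median 205) in the same order. For both genes, every hypothalamus library exceeded every other library. Gad1 (ENSMUSG00000070880, chr2:70553072-70602014), the gene of the decarboxylase spread through the cell, had 341 to 505 CPM (median 420), 332 to 440 (median 372) and 479 to 647 (median 564). The ranges of Gad1 in the hypothalamus and the prefrontal cortex touched, since the highest prefrontal value was above the lowest hypothalamic one.

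Over the prefrontal cortex, the hypothalamus had a log2 fold change of 1.73 for Gad2 (SE 0.03, adjusted p = 1.98e-52 by edgeR), of 1.39 for Slc32a1 (SE 0.04, adjusted p = 7.36e-40) and of 0.45 for Gad1 (SE 0.03, adjusted p = 9.71e-24). Each of the 3 genes was higher in 28 of 28 animals. Over the hippocampus, the values were 1.69 for Gad2, 1.34 for Slc32a1 and 0.60 for Gad1, again in 28 of 28 animals. Gad1 differed by less than 2-fold in both comparisons. Between hippocampus and prefrontal cortex, Gad1 was lower by 0.16 on the log2 scale (SE 0.03, adjusted p = 4.21e-07 by edgeR; 26 of 29 animals). Gad2 (0.04, SE 0.03, adjusted p = 0.207 by edgeR) and Slc32a1 (0.05, SE 0.04, adjusted p = 0.280) did not pass there. The exons of Slc32a1 share 697 bases (24.9%) with the antisense gene Gm14205. With the strand setting of the counting not given in the sources used here, reads of these bases cannot be assigned to one of them. At most 12 counts per library were listed for Gm14205, which does not show how many reads of these bases were left uncounted.

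**Figure D2:**
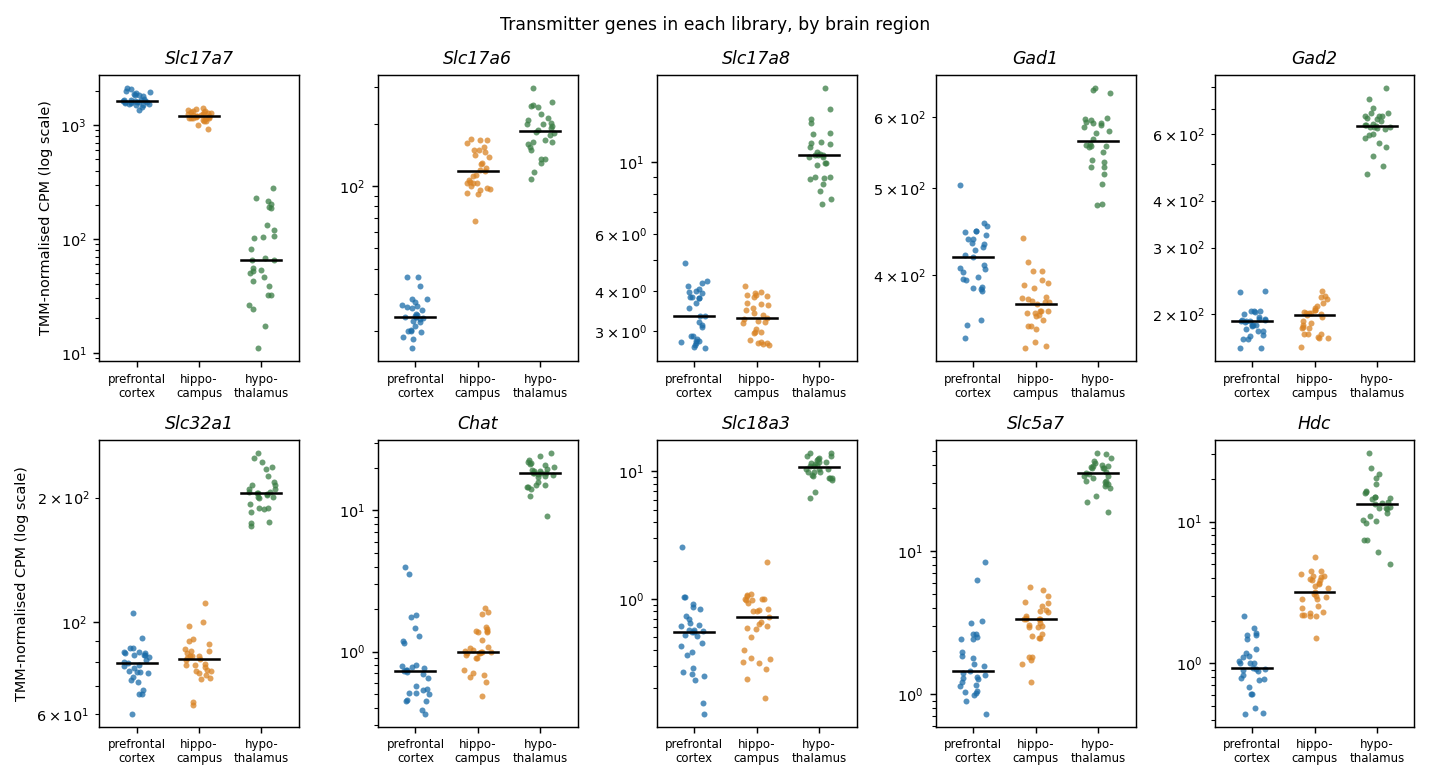
TMM-normalised CPM of each gene in every library on a log scale, with 1 point per library and a black bar at the median of the region (29 prefrontal cortex, 29 hippocampus and 28 hypothalamus libraries). The vertical scale differs between genes. Slc17a7 has its lowest values in the hypothalamus and the other 9 genes their highest medians. For Chat and Slc5a7, the upper points of the prefrontal cortex belong to animals 10 and 20.

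Between hypothalamus and prefrontal cortex, the genes of acetylcholine had the largest differences after Slc17a7. Chat (ENSMUSG00000021919, chr14:32408203-32465989) had 0.364 to 3.99 CPM in the prefrontal cortex (median 0.729), 0.485 to 2.03 in the hippocampus (median 0.998) and 9.09 to 25.5 in the hypothalamus (median 18.4). Slc18a3 (ENSMUSG00000100241, chr14:32462438-32464850) had 0.127 to 2.57 CPM (median 0.556), 0.168 to 1.96 (median 0.727) and 6.18 to 13.9 (median 10.8). Slc5a7 (ENSMUSG00000023945, chr17:54273590-54299034), which returns choline to the terminal, had 0.730 to 8.36 CPM (median 1.44), 1.21 to 5.62 (median 3.32) and 18.8 to 48.3 (median 34.8). The hypothalamus lay above the other regions in every library for all 3 genes, and its lowest library was that of animal 6 each time. In the prefrontal cortex, animals 10 and 20 had the highest levels of Chat and of Slc5a7, and animal 10 also that of Slc18a3.

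The log2 fold change of the hypothalamus over the prefrontal cortex was 4.32 for Chat (SE 0.14, adjusted p = 1.24e-37 by edgeR), 4.21 for Slc18a3 (SE 0.15, adjusted p = 1.02e-34) and 4.17 for Slc5a7 (SE 0.14, adjusted p = 5.50e-36). Differences among these 3 values were not tested. Without the 4 libraries named above they were 4.57, 4.38 and 4.41. Over the hippocampus, the values were 4.07 for Chat (SE 0.14), 3.92 for Slc18a3 (SE 0.15) and 3.43 for Slc5a7 (SE 0.14). All 3 genes were higher in 28 of 28 animals in both comparisons. Between hippocampus and prefrontal cortex, Slc5a7 was higher by 0.73 (SE 0.15, adjusted p = 2.05e-05 by edgeR; 26 of 29 animals), and by 0.95 without the 4 libraries. Chat (0.25, SE 0.16, adjusted p = 0.150) and Slc18a3 (0.29, SE 0.18, adjusted p = 0.144) did not pass. Without the 4 libraries both passed, with 0.47 for Chat (adjusted p = 0.000669 by edgeR) and 0.44 for Slc18a3 (adjusted p = 0.0199). Leaving out animal 10 alone (0.33, adjusted p = 0.0468) or animal 20 alone (0.39, adjusted p = 0.00979) was enough for Chat in edgeR's test, and leaving out animal 10 for Slc18a3 (0.39, adjusted p = 0.0416).

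Hdc (ENSMUSG00000027360, chr2:126593667-126619299) rose from the prefrontal cortex over the hippocampus to the hypothalamus. It had 0.443 to 2.15 CPM in the prefrontal cortex (median 0.933), 1.504 to 5.59 in the hippocampus (median 3.21) and 4.99 to 30.5 in the hypothalamus (median 13.4). Neighbouring ranges overlapped. The log2 fold change was 3.76 for hypothalamus over prefrontal cortex (SE 0.13, adjusted p = 7.99e-36 by edgeR), 2.07 for hypothalamus over hippocampus (SE 0.12) and 1.69 for hippocampus over prefrontal cortex (SE 0.13, adjusted p = 8.75e-18). It was higher in 28 of 28, 28 of 28 and 29 of 29 animals. Markers of mast cells were low in all regions. Summed, 7 mast cell genes had medians of 0.117 CPM in the prefrontal cortex, 0.617 in the hippocampus and 0.168 in the hypothalamus. They reached at most 0.253, 1.21 and 0.784 CPM in the same order. The part of mast cells in the levels of Hdc was not tested. Within the hypothalamus, animal 10 had the highest level of Hdc and animal 6 the lowest.

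Within a library, levels of different genes were compared as CPM per kilobase of exons, which makes their balance readable as ratios. For Slc32a1, the exons include the bases shared with Gm14205. The summed glutamate transporters exceeded Slc32a1 by 11.1-fold in the prefrontal cortex (median of 29 libraries, 8.86 to 16.5) and by 8.40-fold in the hippocampus (6.03 to 11.9). In the hypothalamus, the median ratio was 0.666 (0.363 to 1.23), and it was below 1 in 24 of 28 libraries. The hypothalamic range did not meet those of the other regions. Animal 6 held the highest hypothalamic ratio, and without the 4 libraries the median was 0.660. As shares of the length-scaled sum of glutamate, GABA and acetylcholine transporters, glutamate took 91.7% in the prefrontal cortex, 89.3% in the hippocampus and 38.6% in the hypothalamus (medians). The GABA transporter took 8.28%, 10.6% and 58.0%. Acetylcholine took 0.680, 1.18 and 34.0 per 1000, so that Slc18a3 stayed a small part of the whole even in the hypothalamus. With the length of the longest transcript in place of the exons, the ratio of glutamate transporters to Slc32a1 moved to 19.3, 14.4 and 0.918, and it was below 1 in 15 of 28 hypothalamus libraries. With Gad1 plus Gad2 in place of Slc32a1, it was 3.61, 3.07 and 0.277, and below 1 in 28 of 28 hypothalamus libraries.

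The make-up of the glutamate group itself changed from region to region. Slc17a6 made up 1.41% of the 3 length-scaled transporters in the prefrontal cortex (0.888 to 2.18), 8.63% in the hippocampus (4.61 to 15.2) and 71.6% in the hypothalamus (30.7 to 90.4), and no range met another. Slc17a7 made up 98.4%, 91.0% and 24.7%, and Slc17a8 0.216%, 0.282% and 4.23%. The hypothalamus of animal 7 had the highest Slc17a7 share, 66.9%, and that of animal 20 the lowest, 4.96%. The make-up of the decarboxylases changed as well. The ratio of Gad2 to Gad1 was 0.591 in the prefrontal cortex (0.514 to 0.714), 0.674 in the hippocampus (0.552 to 0.801) and 1.46 in the hypothalamus (1.14 to 1.64). Whether Gad2 exceeded Gad1 in the hypothalamus depended on the length used, since the ratio was 0.703 with the longest transcript and then below 1 in 28 of 28 libraries. The difference between regions does not depend on the length. Slc5a7 over Chat had a median of 1.68, 2.41 and 1.60, with ranges that overlapped.

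**Figure D3:**
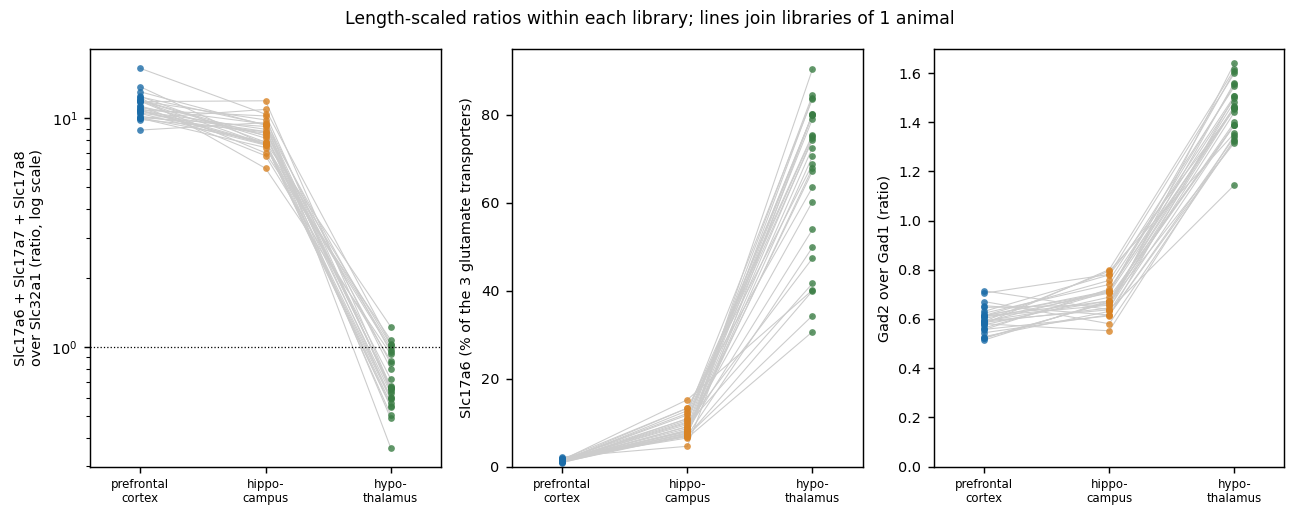
Ratios of length-scaled levels in each library, with grey lines joining the regions of 1 animal. The summed glutamate transporters over Slc32a1 (left, log scale, dotted line at 1) fall from medians of 11.1 and 8.40 to 0.666 in the hypothalamus. The Slc17a6 share (middle) has medians of 1.41%, 8.63% and 71.6%, and Gad2 over Gad1 (right) of 0.591, 0.674 and 1.46.

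Ordered by length-scaled level, Slc17a7 led in the prefrontal cortex (median 305 CPM per kilobase) and in the hippocampus (223), followed by Gad1, Gad2, Slc32a1, Slc17a6 and Slc17a8. Each step down to Slc32a1 held in at least 26 of 29 libraries of both regions. In the hippocampus, Slc32a1 lay above Slc17a6 in 27 of 29 libraries with exon lengths but in 15 of 29 with the longest transcript. Below Slc17a8, at 0.711 and 0.699 CPM per kilobase, the acetylcholine genes and Hdc had ranges that overlapped those of their neighbours in the order. In the hypothalamus the order was Gad2 (108), Gad1 (73.8), Slc32a1 (73.4), Slc17a6 (34.0), Slc17a7 (12.2), Slc5a7 (6.17), Slc18a3 (4.46), Chat (3.90), Slc17a8 (2.23) and Hdc (2.10). Gad1 and Slc32a1 did not differ beyond their spread there with exon lengths, with Gad1 higher in 15 of 28 libraries, and neither did Slc17a8 and Hdc, with Slc17a8 higher in 16 of 28. Slc18a3 lay above Chat in 25 of 28 libraries with exon lengths but in 0 of 28 with the longest transcript, and for Gad2 and Gad1 the order also turned. With the longest transcript, Gad1 exceeded Slc32a1 in 28 of 28 libraries and Slc17a8 exceeded Hdc in 7 of 28.

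The 3 acetylcholine genes varied together from animal to animal within every region. Across animals, Pearson's r and Spearman's rho of log2 levels were computed for 18 relations, with p-values from 100000 permutations. Chat and Slc5a7 had r = 0.910 and rho = 0.807 in the prefrontal cortex (n = 29), r = 0.695 and rho = 0.650 in the hippocampus (n = 29) and r = 0.885 and rho = 0.929 in the hypothalamus (n = 28), with adjusted permutation p of 3.6e-05, 0.00012 and 3.6e-05 for r and of 3.6e-05, 0.000383 and 3.6e-05 for rho. The smallest unadjusted p that these permutations can give is 1e-05. Without the 2 animals farthest from the median of Chat, r was 0.819, 0.649 and 0.812. For the neighbours Chat and Slc18a3, r was 0.631, 0.671 and 0.815 and rho 0.515, 0.645 and 0.787 (adjusted permutation p = 0.000311, 9e-05 and 3.6e-05 for r and 0.00612, 0.0005 and 3.6e-05 for rho). Without the 2 farthest animals, r was 0.418, 0.588 and 0.707. Slc18a3 and Slc5a7 had r of 0.719, 0.882 and 0.682 and rho of 0.554, 0.836 and 0.718 (adjusted permutation p = 6e-05, 3.6e-05 and 0.000126 for r and 0.00264, 3.6e-05 and 0.000103 for rho), and r of 0.536, 0.838 and 0.586 without the 2 farthest. Prefrontal r values were thus lower without the 2 farthest animals. Without the 4 libraries, r of Chat with Slc5a7 was 0.819 for prefrontal cortex and 0.841 for hypothalamus, that of Chat with Slc18a3 0.418 and 0.765, and that of Slc18a3 with Slc5a7 0.541 and 0.581.

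The GABA genes were examined in the same way. Gad1 and Slc32a1 had r of 0.635, 0.809 and 0.622 and rho of 0.711, 0.808 and 0.632 in the prefrontal cortex, hippocampus and hypothalamus (adjusted permutation p = 0.00036, 3.6e-05 and 0.000415 for r and 9e-05, 3.6e-05 and 0.00057 for rho), and r of 0.665, 0.800 and 0.492 without the 2 farthest animals. Gad1 and Gad2 had r of 0.509, 0.304 and 0.710 and rho of 0.624, 0.300 and 0.643 (adjusted permutation p = 0.00635, 0.108 and 9e-05 for r and 0.000507, 0.115 and 0.000507 for rho), and r of 0.468, 0.410 and 0.622 without the 2 farthest. Gad2 and Slc32a1 had r of 0.323, 0.395 and 0.346 and rho of 0.370, 0.477 and 0.367 (adjusted permutation p = 0.0948, 0.0397 and 0.0792 for r and 0.0550, 0.0108 and 0.0588 for rho), and r of 0.326, 0.377 and 0.551 without the 2 farthest. Only the hippocampal value of this last relation passed. Without the 4 libraries, r of Gad2 with Slc32a1 was 0.119 for prefrontal cortex and 0.335 for hypothalamus. In females alone r of Gad2 with Slc32a1 was -0.030 in the prefrontal cortex and 0.161 in the hippocampus, and in males alone it was 0.704 and 0.589. The difference between the sexes was not tested.

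Levels of several transmitter genes moved with markers of neighbouring structures among libraries of 1 region. These relations were added after the data were examined, as 300 pairs of a gene with the mean standardised log2 level of a marker list, and p-values were adjusted over all of them. In the prefrontal cortex, Slc5a7 rose with 8 markers of striatal projection neurons (r = 0.958, rho = 0.910, adjusted permutation p = 0.000429 for r and 0.0005 for rho, n = 29), and r was 0.919 without the 2 farthest animals. Chat (r = 0.925, rho = 0.833, with the same adjusted permutation p) rose with these markers too, with r of 0.854 without the 2 farthest. In the hypothalamus, Slc18a3 rose with 6 markers of forebrain cholinergic neurons (r = 0.831, rho = 0.819, adjusted permutation p = 0.000429 and 0.0005, n = 28, r of 0.821 without the 2 farthest). Summed, these 6 markers ran from 78.7 to 128 CPM in the hypothalamus, 8.43 to 26.2 in the hippocampus and 5.28 to 12.9 in the prefrontal cortex. None of the 3 motor neuron markers reached a median of 0.1 CPM in any region.

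Slc17a6 in the hypothalamus rose with 8 thalamic markers (r = 0.762, rho = 0.779, adjusted permutation p = 0.000429 and 0.0005, n = 28, r of 0.683 without the 2 farthest). It was lower where the striatal markers were higher (r = -0.770, rho = -0.767, adjusted permutation p = 0.000429 and 0.0005, r of -0.784 without the 2 farthest). In the hippocampus, r of Slc17a6 with the thalamic markers was 0.660 and rho 0.631 (adjusted permutation p = 0.00229 and 0.0076, n = 29, r of 0.654 without the 2 farthest). Slc17a7 in the hypothalamus rose with the 8 cortical markers (r = 0.704, rho = 0.692, adjusted permutation p = 0.00075 and 0.00275, n = 28, r of 0.742 without the 2 farthest). The part of these other structures in the differences between regions was not tested.

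**Figure D4:**
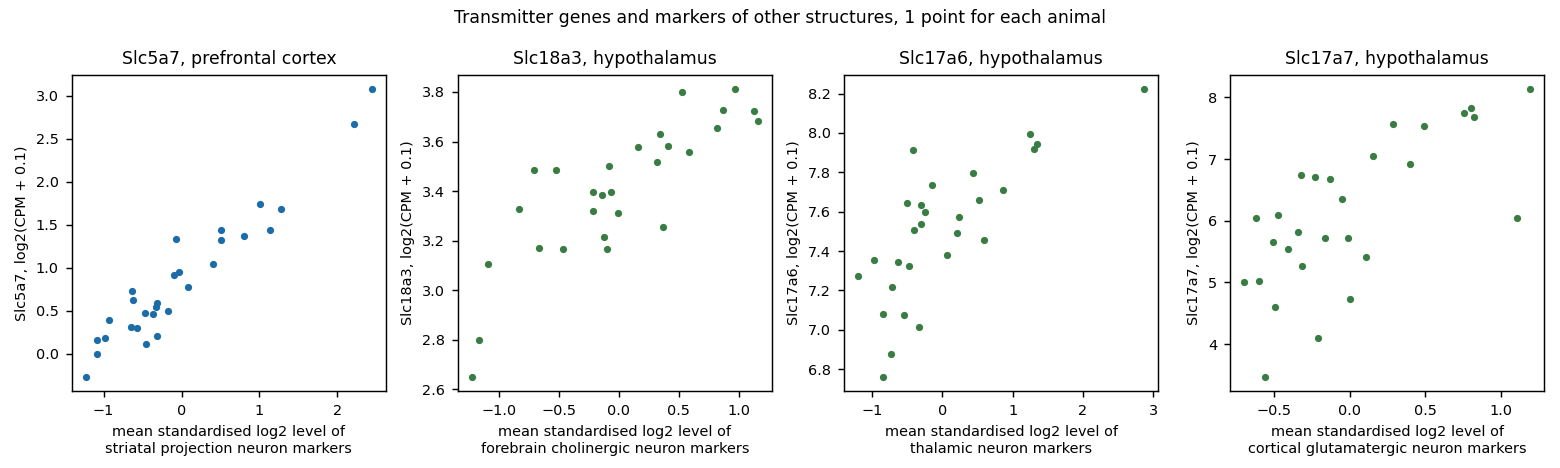
Level of a transmitter gene, as log2 of CPM + 0.1, against the mean standardised log2 level of a marker list, with 1 point per animal (29 in the prefrontal cortex, 28 in the hypothalamus). The 2 rightmost points for Slc5a7 are animals 10 and 20, and the rightmost point for Slc17a6 is animal 6. Pearson's r is 0.958, 0.831, 0.762 and 0.704 from left to right.

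Other genes of the same pathways were counted from fixed lists, by edgeR's test between hypothalamus and prefrontal cortex. Of all genes, 42.2% were higher and 39.1% lower in this test, which is the background for each count. Of 7 further GABA genes, 5 were higher and 1, Gadl1, was lower. The astrocytic GABA transporter Slc6a11 was higher by 2.07 on the log2 scale (SE 0.05) and the GABA-degrading enzyme Abat by 1.20 (SE 0.03). Of 13 genes of glutamate metabolism and uptake, 4 were higher and 9 lower. The largest difference among them was in Slc1a2, the main astrocytic glutamate transporter, with a log2 fold change of -1.11 (SE 0.04). Of 10 acetylcholine genes, 5 were higher and 4 lower. Acetylcholinesterase (Ache) was higher by 1.70 (SE 0.04), and its membrane anchor Prima1 by 1.86 (SE 0.07). The muscarinic receptor Chrm1 was lower, with a log2 fold change of -2.23 (SE 0.07). Chrm5, another muscarinic receptor, had a prefrontal mean of 0.140 CPM and a hypothalamic mean of 5.61, and it did not pass the filter on low counts within the prefrontal cortex. Of 6 histamine genes tested, 4 were higher and 2 lower. Slc18a2, the vesicular transporter that histamine shares with dopamine, noradrenaline and serotonin, was higher by 2.96 (SE 0.12), and the histamine autoreceptor Hrh3 had a log2 fold change of -0.93 (SE 0.05). The list medians were 0.59 for GABA, -0.21 for glutamate, 0.15 for acetylcholine and 0.34 for histamine, beside 0.02 over all genes. Of 11 genes of other transmitters tested, 7 were higher and 4 lower, but 4 of the 11 did not pass the filter on low counts in the network size comparisons of at least 1 of these regions. Th, the first enzyme of catecholamine synthesis, had a log2 fold change of 2.96 (SE 0.18).

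Network size was compared within each region and sex, small over large, which gave 60 tests of the 10 genes. By edgeR's quasi-likelihood test, 0 of the 60 had an adjusted p under 0.05, and the DESeq2 Wald test called 0 as well. The smallest adjusted p of edgeR was 0.506. Over all genes, the share called by edgeR was 0.0113% for the prefrontal cortex and 0.00552% for the hypothalamus of females and 0% in the other 4 comparisons. These are 2 and 1 genes. DESeq2 called far more genes in females, with 74 for prefrontal cortex, 43 for hypothalamus and 95 for hippocampus, and 2, 1 and 0 in males. Log2 fold changes lay between -0.25 and 0.63, with standard errors between 0.04 and 0.58, and small and large groups overlapped for every gene. The value of 0.63 was that of Slc18a3 in the prefrontal cortex of males, and it was 0.15 (SE 0.29) without animal 10. At an unadjusted p under 0.05 there were 3 tests, all in the hippocampus of males, where 3.88% of all genes reached this level. In the other comparisons this share was 9.59% (prefrontal cortex of females), 2.52% (prefrontal cortex of males), 7.39% (hypothalamus of females), 2.90% (hypothalamus of males) and 12.2% (hippocampus of females). Gad2 had 211 ± 14.3 CPM (SD, n = 8) where network sizes were small and 193 ± 13.8 (SD, n = 7) where they were large, from 187 to 230 and from 172 to 212. Its log2 fold change was 0.13 (SE 0.05, adjusted p = 0.999 by edgeR), and the two-sided exact permutation test gave p = 0.0258, or 0.564 adjusted over the 60 tests. Slc32a1 had 88.2 ± 10.2 (SD, n = 8) and 78.5 ± 9.26 CPM (SD, n = 7), and Chat 1.31 ± 0.473 (SD, n = 8) and 0.900 ± 0.303 CPM (SD, n = 7). Their log2 fold changes were 0.17 (SE 0.08) and 0.54 (SE 0.25), both at an adjusted p of 0.999 by edgeR.

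In the hypothalamus of females, Chat, Slc5a7, Slc18a3, Gad1, Gad2, Slc17a7 and Slc17a8 had lower means with small network sizes, and none passed. The medians with small and large sizes went the other way for Slc17a7 (56.8 and 41.1 CPM) and Slc17a8 (11.38 and 11.26 CPM). Chat had 19.1 ± 2.65 CPM (SD, n = 7) where network sizes were small and 22.4 ± 3.65 (SD, n = 7) where they were large, a log2 fold change of -0.23 (SE 0.11, adjusted p = 0.674 by edgeR). Hdc had 15.8 ± 3.91 and 12.97 ± 4.18 CPM (SD, n = 7 each), and a log2 fold change of 0.28 (SE 0.20). Among the contrasts within the hypothalamus, those of Slc17a7 were the least precise, with a standard error of 0.58 in females and 0.52 in males. Female minus male values of the size contrast, tested with all 4 groups of a region, had an adjusted p under 0.05 for 0 of the 10 genes in each region by edgeR and by DESeq2. At an unadjusted p under 0.05, it included Slc17a8 in the hypothalamus (-0.40, SE 0.20) and Gad2 in the hippocampus (-0.20, SE 0.08), with adjusted p of 0.787 and 0.646 by edgeR. The share of all genes at this unadjusted level was 6.14% and 7.37%, and 4.17% in the prefrontal cortex. edgeR's adjusted test called 0% of all genes in each region, whereas DESeq2 called 30 (prefrontal cortex), 0 (hypothalamus) and 1 (hippocampus). Between males and females averaged over network size, 0 of the 10 genes passed in any region by edgeR or DESeq2 and 0 had an unadjusted p under 0.05. Of all genes, 0.0976% passed for prefrontal cortex, 0.117% for hypothalamus and 0.102% for hippocampus, and 4.98%, 6.79% and 5.99% reached the unadjusted level.

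**Figure D5:**
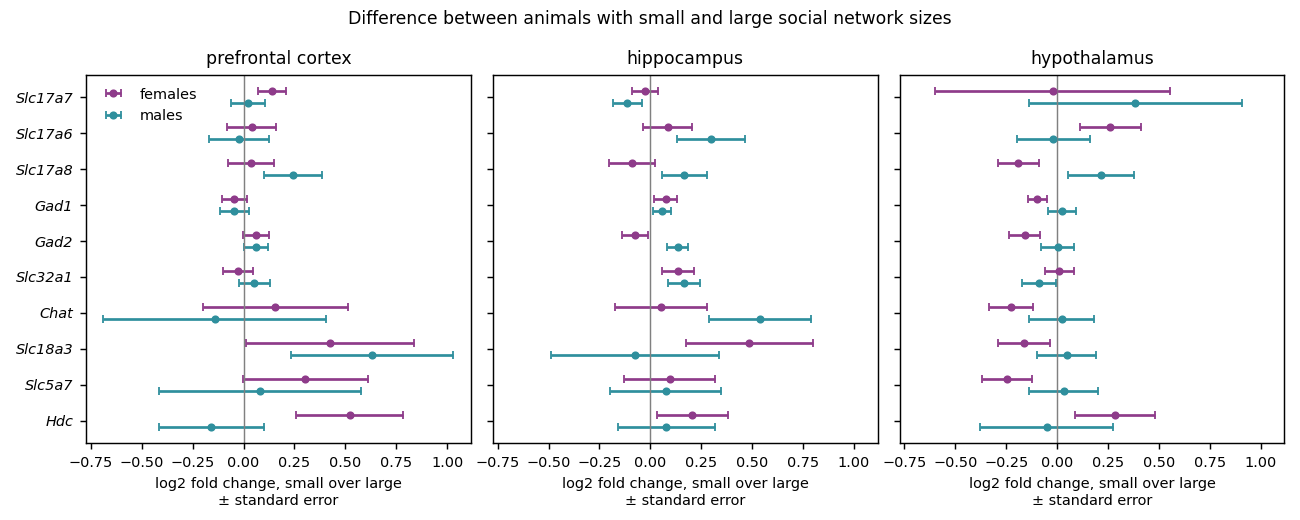
Log2 fold changes of animals with small over animals with large social network sizes, from edgeR, with standard errors as bars, for females (purple) and males (teal) in each region. Values lie between -0.25 and 0.63, and the widest bars are those of Slc17a7 in the hypothalamus of both sexes and of Chat and Slc5a7 in the prefrontal cortex of males.

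The genes whose levels were most like those of a transmitter gene were looked up in the region where that gene was highest, by Pearson's r of log2 CPM over the libraries of the region. In the hypothalamus (28 libraries, 15048 genes), Hdc was most like Prph (r = 0.885), Bsx (0.808) and Wif1 (0.747). Chat was most like Slc5a7 (0.885), Trpc7 (0.859) and C130060K24Rik (0.849), and Slc5a7 was most like Chat, Gpr149 (0.812) and Gad2 (0.791). Slc18a3 was most like Lhx6 (0.839), Ngfr (0.821) and Stac (0.816). For Slc17a6, these were Jam2 (0.915), Deptor (0.894) and Epb41l3 (0.884). Slc17a8 was most like Chn2 (0.786), Slc5a7 (0.778) and Glce (0.772), and Gad1 like D430036J16Rik (0.787), Ssbp2 (0.781) and Chn2 (0.768). Gad2 was most like St8sia3 (0.823), Slc5a7 (0.791) and Sorcs1 (0.791), and Slc32a1 like Wbp11 (0.801), Abcb8 (0.763) and Spg21 (0.757). In the prefrontal cortex (29 libraries, 14757 genes), Slc17a7 was most like Sema6b (0.941), Nacc1 (0.937) and Hk1 (0.934). Total counts and marker levels of other structures differed between the libraries, and their part in these r values was not tested. These are descriptions without a test.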

How the data were processed

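RNA-seq libraries of 3 punched brain regions were analysed. The authors mapped paired-end reads to GRCm38/mm10 with STAR, counted them per gene with HTSeq and deposited raw counts. The annotation and strand setting are not given in the sources used here. Genes were named by GENCODE vM21 (34490 of 35275 found). Libraries were normalised by TMM and tested with edgeR 4.0.16 in R 4.3.3 (genes kept by filterByExpr, set to 10 counts, 15 in total and a proportion of 0.7; Benjamini-Hochberg adjustment). Regions were compared with the animal as a block. The labels carry animal numbers, which pair the libraries: deviations from region means correlated at 0.231 to 0.622 between libraries of 1 animal. Network size was tested per region and sex, and sex with 4 groups. For network size and sex, p-values measure the spread between animals. For regions, they measure the spread that is left after the animal block, estimated over all 3 regions. Levels were divided by the exon union; correlations and exact tests used log2(CPM + 0.1). Alternatives were DESeq2 1.42.0, its size factors, other filters, lengths and groups of libraries. The scripts were tested on simulated data. The named genes are the 10 members, the fixed lists and, for each member, the 3 most alike; members and lists were chosen with earlier results of these data known.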

Additional observations from a re-analysis of the deposited data

Results flagged for a closer look

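In 13 of 120 groups of 1 region, sex and network size, the highest or lowest animal lay farther from the nearest other than Dixon's criterion allows. Chance alone flags about 1 in 20 groups if values are independent and normally distributed. The CPM used were not log-transformed, and the same animals recur among the groups, so this rate cannot be applied to the 13. Values are TMM-normalised CPM within a region. In the prefrontal cortex, 7 of the 13 concerned the acetylcholine genes. Among males with small network sizes, animal 10 had 3.30 for Chat (nearest other 1.20), 2.38 for Slc18a3 (nearest other 0.805) and 7.72 for Slc5a7 (nearest other 2.42). Among males with large network sizes, animal 20 had 3.73 for Chat (nearest other 1.05) and 5.85 for Slc5a7 (nearest other 2.23). These were the 2 prefrontal libraries with high striatal markers. Among females with large network sizes, animal 2 had 1.65 for Chat (nearest other 0.741) and 3.03 for Slc5a7 (nearest other 1.51).

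For Hdc, animal 8, a female with a small network size, had 1.99 in the prefrontal cortex (nearest other 1.04). In the hypothalamus of females with small network sizes, animal 4 had the highest Slc17a7, at 228 (nearest other 109), and the lowest Gad2, at 500.1 (nearest other 627). For Slc32a1, animal 3 had 274 in the hypothalamus of females with large network sizes (nearest other 224). In the hippocampus, animal 26 had 63.2 among females with large network sizes (nearest other 76.7), and animal 7 had 112 among males with small ones (nearest other 91.8). The part of other brain structures in these values was not tested.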

How the results depend on the processing

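DESeq2, its size factors and the inclusion of all genes with at least 1 count changed no call of the 10 genes in the region, network size and sex comparisons. Over all genes, DESeq2 called more than edgeR for sex, with 29 against 18 genes in the prefrontal cortex, 40 against 22 in the hypothalamus and 31 against 19 in the hippocampus, and for network size in females, with 74 against 2, 43 against 1 and 95 against 0. The fit without the animal as a block called 10, 10 and 5 genes for hypothalamus over prefrontal cortex, hypothalamus over hippocampus and hippocampus over prefrontal cortex, as with the block. Leaving out 1 animal at a time, these counts were 10 to 10, 10 to 10 and 5 to 7, and 0 to 0 for network size. Besides Chat and Slc18a3, Gad2 passed between hippocampus and prefrontal cortex without animal 8 (0.06, adjusted p = 0.0393 by edgeR). Without the 4 libraries with markers of other structures, a choice made after the data were examined, 7 genes passed there. With the longest transcript as gene length, the ratio of glutamate transporters to Slc32a1 was 19.3, 14.4 and 0.918 in the prefrontal cortex, hippocampus and hypothalamus, the ratio of Gad2 to Gad1 was 0.285, 0.325 and 0.703, and the Slc17a6 share was 1.06% in the prefrontal cortex. With Gad1 plus Gad2 as the GABA measure, the first ratio was 3.61, 3.07 and 0.277. In females alone, r was 0.520 and 0.532 for Chat with Slc18a3 in the prefrontal cortex and hippocampus, 0.473 for Gad1 with Gad2 in the prefrontal cortex, -0.030 and 0.161 for Gad2 with Slc32a1 in the prefrontal cortex and hippocampus, and 0.431 for Slc18a3 with Slc5a7 and 0.360 for Gad1 with Slc32a1 in the hypothalamus. None of these passed. In males alone, Gad2 with Slc32a1 passed in the prefrontal cortex (r = 0.704) and in the hypothalamus (r = 0.590). The cause was not tested. At 4 counts in the lowest prefrontal library, counting error limits Slc18a3 most.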
